A study of Saccharomyces cerevisiae with 8 samples.

Results

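The genes described are those of the budding yeast proteasome: the core particle, the base and lid of the regulatory particle, the factors that assemble them, and the transcription factor RPN4. Members were chosen by name, as the array IDs whose gene name in the R64 annotation is one of PRE1 to PRE10, PUP1 to PUP3, SCL1, RPT1 to RPT6, RPN1 to RPN14, POC4, UMP1, ADD66, BLM10 or ECM29. Of these 39 genes, 38 had a value on at least 1 of the 8 arrays, among 5519 such IDs of 6212 in the table. They comprise 14 core subunits (7 of the alpha ring and 7 of the beta ring), 10 base subunits (6 ATPases and 4 others), 8 lid subunits, 4 assembly factors, the activator BLM10 and RPN4. ECM29, an adaptor of the proteasome, had no value on any array. RPN4 had a value on 1 array, and 32 members had a value on all 8.

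The RNAs came from a pif1::KanMX strain in the BY4741 background, in which the gene of the Pif1 DNA helicase is disrupted, and from BY4741 wild type. Cells were grown in YPD rich medium at 28 °C to an A660 of 0.6 and given 5 mM ZnCl2 for 1 h or left untreated. Each 2-colour array held a pair of RNAs, and each of 4 comparisons had 2 arrays with exchanged dyes: pif1 with zinc over untreated pif1, wild type with zinc over untreated wild type, pif1 with zinc over wild type with zinc, and untreated pif1 over untreated wild type. On the zinc arrays the untreated cultures grew on for the same further hour, which the labels do not state for the untreated cells of the mutant arrays. The mutant is 1 strain. Nothing states that both arrays of a comparison came from separate cultures, and if they did not, the tests below measure technical error.

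The proteasome degrades proteins that carry chains of ubiquitin. Its barrel-shaped core holds the proteolytic sites inside the beta rings and is gated by the alpha rings, while the base unfolds substrates with a ring of ATPases and the lid removes their ubiquitin. In yeast, Rpn4 binds the promoters of most subunit genes and raises their transcription, and it is itself a short-lived substrate of the proteasome.

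Each value is a log2 ratio, zinc over no zinc or pif1 over wild type, after the array's median was set to 0. These are differences, not levels, so genes were not compared in abundance. Means are over 2 arrays and are given ± SD. Between 73.3% and 82.4% of the IDs had a value on an array. PIF1 itself was at −3.69 on replicate 2 labelled with zinc and at −4.88 on replicate 2 labelled without zinc, and held a placeholder on both arrays numbered 1.

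The zinc labels of the mutant arrays were at odds with the zinc arrays. HSP26, a small heat shock gene, was at 3.28 and 3.35 for zinc in pif1, and at 6.90 and 6.37 for zinc in the wild type. Its ratio of pif1 over wild type was 2.67 and 1.48 on the arrays labelled with zinc, against −0.62 and −0.95 on those labelled without. HSP26 thus had lower zinc values in pif1, yet its ratio of pif1 over wild type lay above 0 on the arrays labelled with zinc. Across 3857 genes, the difference between strains in zinc response as read from the zinc arrays correlated at −0.251 with the same difference as read from the mutant arrays. The sum around the 4 comparisons, which should be 0, had an SD across genes of 0.496 as labelled and 0.388 with the zinc labels of the mutant arrays exchanged. Over the 32 members with all values, that correlation was −0.060 and the SD was 0.296 as labelled and 0.280 exchanged. Without POC4 the correlation was 0.427 over 31 members, and the SD was 0.193 as labelled and 0.284 exchanged. A label applies to a whole array, and the members' result turned on 1 gene, so their values cannot tell whether the labels hold. The mutant arrays are described as labelled with or without zinc. For them, "with zinc" and "without zinc" below refer to these labels. The lowest correlation between any pair of arrays was −0.365, between wild-type zinc replicate 1 and replicate 2 of pif1 over wild type labelled without zinc, over 4642 genes.

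**Figure D1:**
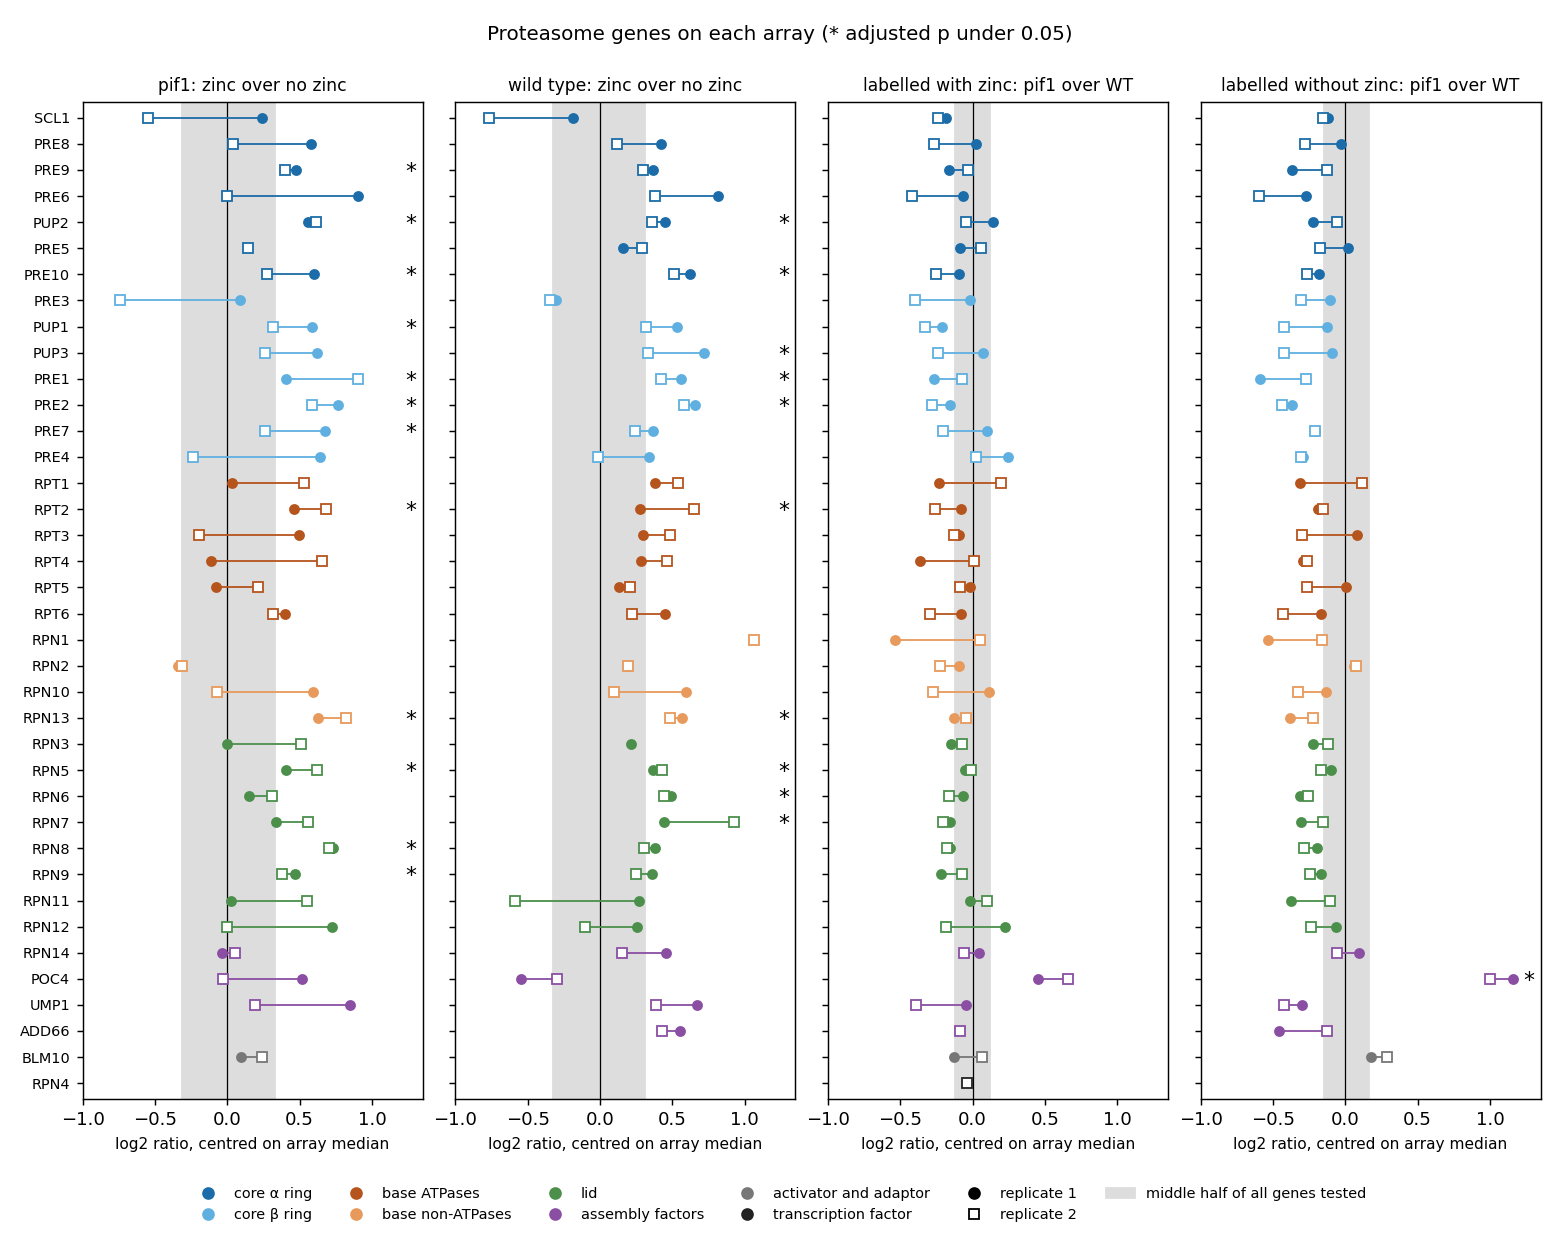
Log2 ratio of each proteasome gene (rows, by subcomplex) on the 2 arrays of each comparison (panels), with the interquartile range of all genes tested in grey and a star where the adjusted p was under 0.05. Most genes lie right of 0 in both zinc comparisons and left of 0 in pif1 against wild type. There POC4 lies far to the right (1.08 on the arrays labelled without zinc).

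After 1 h in zinc, some proteasome transcripts rose in each strain, all by less than 2-fold, and none fell. In pif1, 12 of 34 members tested rose and 0 fell (35.3% higher), when 15.5% of all 4272 genes tested rose and 15.8% fell (31.3% in either direction). In the wild type, 10 of 34 rose and 0 fell (29.4% higher), when 14.7% of 4635 genes rose and 15.6% fell (30.3% in either direction). The median member was at 0.36 in pif1 and 0.36 in the wild type. The median of all genes tested was 0.013 in pif1 and −0.0020 in the wild type. A gene rose or fell where limma's moderated test gave a Benjamini-Hochberg adjusted p under 0.05. At an unadjusted p under 0.05, limma had 16 members higher and 1 lower in pif1 (RPN2), and 20 higher and 2 lower in the wild type (SCL1 and POC4). Of all genes tested, 42.8% were under it in pif1 (21% lower) and 42.6% in the wild type (22.1% lower).

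More members shared a sign than passed the test. In pif1, 21 of 34 members lay above 0 on both arrays (61.8%, against 33.6% of all genes tested) and 1 below 0 on both (2.94%, against 32%). In the wild type, 28 of 34 lay above 0 on both arrays (82.4%, against 39.6%) and 3 below 0 on both (8.82%, against 39.9%). Of the 32 members with all 4 zinc values, 19 were above 0 on every one, when 26.5% of all such genes were. The 19 include subunits of both core rings, the base and the lid, and the maturation factor UMP1. The 2 arrays differed more in pif1 than in the wild type, with a within-pair SD of 0.339 in pif1 and 0.208 in the wild type over the members, and of 0.431 and 0.235 over all genes.

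The calls moved with how the spread was estimated. In pif1 they rest on a spread pooled with comparisons whose arrays differed less. In simulated data with the real spread of each pair, this let far more false calls through for zinc in pif1 than the threshold allows. It did not for the other 3 comparisons. The simulated noise was independent between arrays and had the same spread for every gene of a comparison. The simulation thus cannot show that false calls were held down in the real data. Fitted alone, the 2 arrays of pif1 called 0 members and those of the wild type 18 (16 higher, with SCL1 and POC4 lower). No share of all genes is given for these fits, so their counts stand without a background. With all arrays scaled to 1 spread, limma called 1 member in pif1 (RPN8) and 2 in the wild type (PRE2 and RPN7), when 9.67% of all genes tested were called in pif1 and 15.4% in the wild type. Same-numbered arrays deviated together, and with the replicate number as a block 19 members were called in pif1 (18 higher, and RPN2 lower) and 20 in the wild type (19 higher, and SCL1 lower), when 44.8% of all genes tested were called in pif1 and 42.7% in the wild type. The block added calls of PUP3, PRE6, RPT6, RPN7, RPN12, UMP1 and RPN2 in pif1, and of PRE9, PRE6, PUP1, RPT1, RPT6, RPN8, RPN10, UMP1, ADD66 and SCL1 in the wild type.

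In the core particle the beta ring holds the active sites, and its catalytic subunits did not move alike. PRE2, the chymotrypsin-like subunit, was at 0.76 and 0.59 in pif1 and at 0.66 and 0.58 in the wild type. It rose in both strains, by 0.68 ± 0.13 in pif1 (1.60-fold, limma adjusted p = 0.00478) and by 0.62 ± 0.051 in the wild type (1.54-fold, adjusted p = 0.00714), and was the highest beta subunit in each. PUP1, the trypsin-like subunit, was at 0.59 and 0.32 in pif1, where it rose (limma adjusted p = 0.0422), and at 0.54 and 0.32 in the wild type, where it did not pass (adjusted p = 0.0519). PRE3, the caspase-like subunit, was at 0.085 and −0.74 in pif1 and at −0.30 and −0.35 in the wild type, and passed in neither (limma adjusted p = 0.239 in pif1 and 0.247 in the wild type). It was the lowest beta subunit in both strains.

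The other beta subunits have no active site. PRE1 rose in both strains, by 0.65 ± 0.35 in pif1 (0.41 and 0.90, limma adjusted p = 0.0154) and by 0.49 ± 0.10 in the wild type (0.56 and 0.43, adjusted p = 0.0465). PRE7 rose in pif1 (0.47 ± 0.29, limma adjusted p = 0.0422) and was at 0.30 ± 0.087 in the wild type. PUP3 was at 0.44 ± 0.25 in pif1 and rose in the wild type (0.53 ± 0.27, limma adjusted p = 0.0432). PRE4 was the beta subunit whose arrays disagreed in sign in both strains, at 0.64 and −0.24 in pif1 and at 0.34 and −0.013 in the wild type.

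Of the alpha ring, which closes the barrel and admits substrates, 3 of 6 tested subunits rose in pif1 and 2 of 7 in the wild type. The shares over all genes tested were 15.5% in pif1 and 14.7% in the wild type. PUP2, the highest alpha subunit in pif1, rose by 0.59 ± 0.038 there (0.56 and 0.62, limma adjusted p = 0.00922) and by 0.40 ± 0.065 in the wild type (0.45 and 0.36, adjusted p = 0.0425). PRE10 also rose in both, by 0.44 ± 0.23 in pif1 (0.60 and 0.27, limma adjusted p = 0.0393) and by 0.57 ± 0.075 in the wild type (0.62 and 0.51, adjusted p = 0.0148). PRE9, the nonessential core subunit, rose in pif1 (0.44 ± 0.053, limma adjusted p = 0.0318) and was at 0.33 ± 0.045 in the wild type. These 3 subunits were above 0 on all 4 zinc arrays, as was PRE8, at 0.31 in pif1 and 0.27 in the wild type.

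The rest of the alpha ring scattered more. PRE6 was at 0.90 and −0.0035 in pif1 and at 0.82 and 0.38 in the wild type (limma adjusted p = 0.0728), where it had the highest mean of the alpha ring. PRE5 had 1 value in pif1, 0.14, and was at 0.16 and 0.29 in the wild type. SCL1 was the lowest of its ring in both strains. It was at 0.24 and −0.55 in pif1 (mean −0.16 ± 0.56, limma adjusted p = 0.607) and at −0.18 and −0.77 in the wild type (mean −0.48 ± 0.41, adjusted p = 0.111).

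In the base, RPT2 was the ATPase that rose, in both strains. It was at 0.46 and 0.69 in pif1 (mean 0.57 ± 0.16, limma adjusted p = 0.0169) and at 0.27 and 0.65 in the wild type (mean 0.46 ± 0.27, adjusted p = 0.0400). RPT1 had the same mean as RPT2 in the wild type (0.38 and 0.54) without passing (limma adjusted p = 0.0852), and was at 0.030 and 0.53 in pif1. RPT5 was the lowest ATPase, at −0.079 and 0.21 in pif1 and 0.14 and 0.21 in the wild type. The means of RPT3, RPT4 and RPT6 lay between these, from 0.15 to 0.36 in pif1 and from 0.34 to 0.39 in the wild type. Of the 6 ATPases, 3 were above 0 on both pif1 arrays and 6 on both wild-type arrays. The shares over all genes tested were 33.6% in pif1 and 39.6% in the wild type.

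RPN13, a ubiquitin receptor of the base, had the highest mean of any member in pif1. It was at 0.63 and 0.82 there (mean 0.72 ± 0.14, 1.65-fold, limma adjusted p = 0.00372) and at 0.57 and 0.48 in the wild type (mean 0.52 ± 0.060, adjusted p = 0.0159). RPN10, another ubiquitin receptor, was at 0.59 and −0.069 in pif1 and at 0.60 and 0.094 in the wild type and passed in neither. The replicates of RPN13 lay close together and those of RPN10 did not.

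The scaffold subunits of the base are RPN1 and RPN2. RPN1 had 1 zinc value, 1.06 on replicate 2 of the wild type, and was not tested for zinc. RPN2 was at −0.34 and −0.31 in pif1 (mean −0.33 ± 0.021, limma adjusted p = 0.0715) and at 0.18 and 0.19 in the wild type (mean 0.19 ± 0.0057, adjusted p = 0.274). It was the member below 0 on both arrays of one strain and above 0 on both of the other.

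All 8 lid subunits had means above 0 in pif1, from 0.23 for RPN6 to 0.72 for RPN8. RPN8, the partner of the lid's deubiquitinase RPN11, rose by 0.72 ± 0.021 in pif1 (0.73 and 0.70, 1.64-fold, limma adjusted p = 0.00299) and was at 0.34 ± 0.049 in the wild type (0.38 and 0.31, adjusted p = 0.0614). RPN5, a structural subunit, rose in both, by 0.51 ± 0.15 in pif1 (0.40 and 0.62, limma adjusted p = 0.0156) and by 0.40 ± 0.047 in the wild type (0.37 and 0.43, adjusted p = 0.0418). Both genes were above 0 on all 4 zinc arrays.

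RPN7, another structural subunit, had the highest mean of any member in the wild type. It was at 0.33 and 0.56 in pif1 (mean 0.45 ± 0.16, limma adjusted p = 0.0544) and at 0.44 and 0.93 in the wild type (mean 0.68 ± 0.34, 1.61-fold, adjusted p = 0.0107). RPN9 rose in pif1 (0.42 ± 0.066, limma adjusted p = 0.0321) and was at 0.30 ± 0.081 in the wild type. RPN6 was at 0.15 and 0.31 in pif1 and rose in the wild type (0.49 and 0.44, limma adjusted p = 0.0226). RPN7, RPN9 and RPN6 were thus called in 1 strain each while above 0 on all 4 arrays. RPN11, the metalloprotease that cuts ubiquitin from substrates, was at 0.025 and 0.55 in pif1 and at 0.27 and −0.59 in the wild type, where it had the lowest mean of the lid. RPN12 was at 0.72 and −0.0015 in pif1 and at 0.26 and −0.11 in the wild type. RPN3 was at −0.0015 and 0.51 in pif1 and had 1 value, 0.22, in the wild type.

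None of the 4 assembly factors passed in either zinc comparison in the fit used above. With the replicate block, UMP1 passed as higher in pif1 (limma adjusted p = 0.00970) and in the wild type (adjusted p = 0.00878). ADD66 passed with it in the wild type (limma adjusted p = 0.0262). Over genes with a value on all 8 arrays, UMP1 passed in both strains (limma adjusted p = 0.0453 in pif1 and 0.0431 in the wild type). In the wild type with each array's trend with gene length removed, UMP1 (limma adjusted p = 0.0314) and ADD66 (0.0417) passed. With the wild-type arrays fitted alone, UMP1 (limma adjusted p = 0.00486) and ADD66 (0.00949) passed as higher and POC4 as lower (0.0297). UMP1, which guides maturation of the beta ring, was at 0.85 and 0.19 in pif1 (limma adjusted p = 0.0576) and at 0.67 and 0.39 in the wild type (adjusted p = 0.0545). ADD66, a chaperone of the alpha ring, had zinc values in the wild type alone, 0.55 and 0.43 (limma adjusted p = 0.0504). UMP1 and ADD66 were above 0 on every zinc array that measured them. RPN14, a chaperone of the base, was at −0.037 and 0.051 in pif1 and at 0.46 and 0.16 in the wild type. POC4, another chaperone of the alpha ring, was at 0.52 and −0.028 in pif1 (limma adjusted p = 0.286) and at −0.55 and −0.30 in the wild type (adjusted p = 0.0827). BLM10, an alternative cap of the core, had zinc values in pif1 alone, 0.10 and 0.24.

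**Figure D2:**
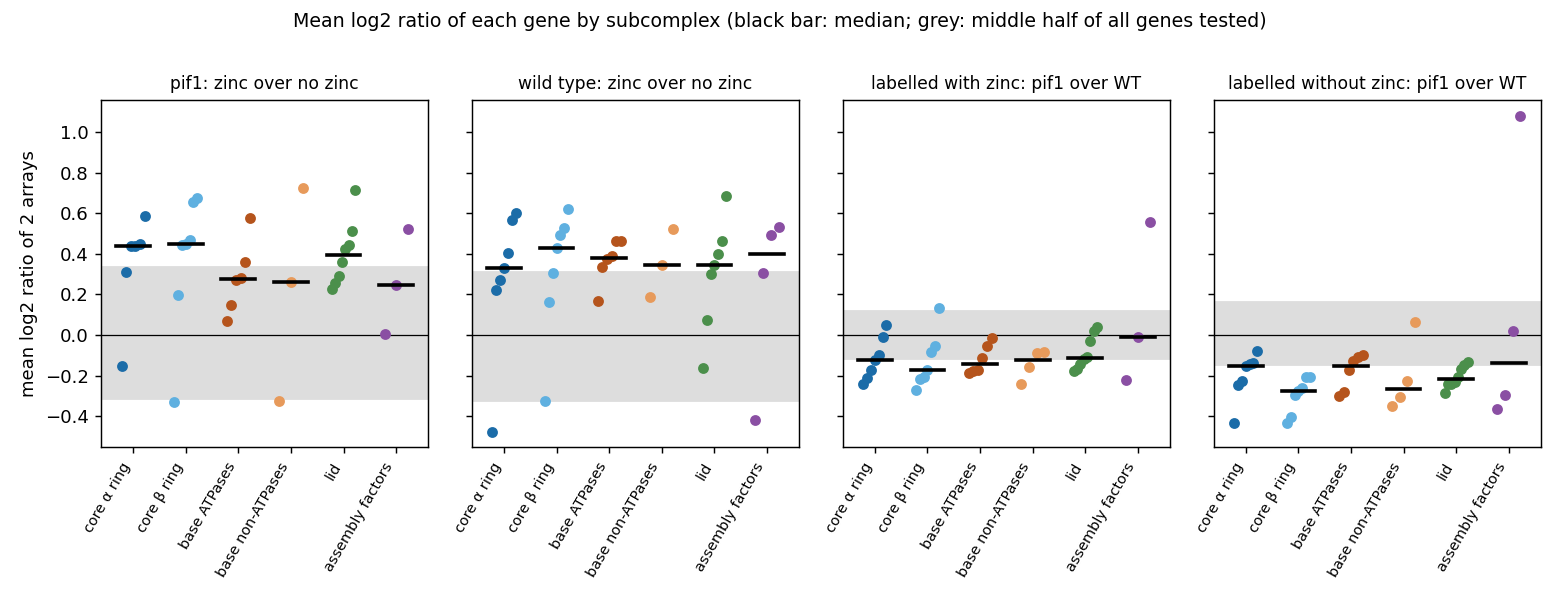
Mean log2 ratio over 2 arrays of each gene tested, by subcomplex, in the 4 comparisons (black bar, median of the subcomplex; grey, interquartile range of all genes tested). For zinc the medians of the alpha ring, beta ring, ATPases, other base subunits, lid and assembly factors lie between 0.24 and 0.45 in both strains.

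With the trend with gene length left in, the subcomplexes had similar medians and overlapping ranges. The core particle had a median of 0.44 in pif1 (7 of 13 higher) and 0.37 in the wild type (5 of 14 higher). The base had a median of 0.27 in pif1 (2 of 9 higher) and 0.37 in the wild type (2 of 9 higher). The lid had a median of 0.39 in pif1 (3 of 8 higher) and 0.34 in the wild type (3 of 7 higher). The core reached both the lowest and nearly the highest values, from −0.33 to 0.68 in pif1 and from −0.48 to 0.62 in the wild type. The assembly factors had a median of 0.24 in pif1 (3 tested) and 0.40 in the wild type (4 tested). The counts stand against 15.5% of all genes tested higher in pif1 and 14.7% in the wild type, and those of the base are near these shares. No difference between subcomplexes was tested.

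**Figure D3:**
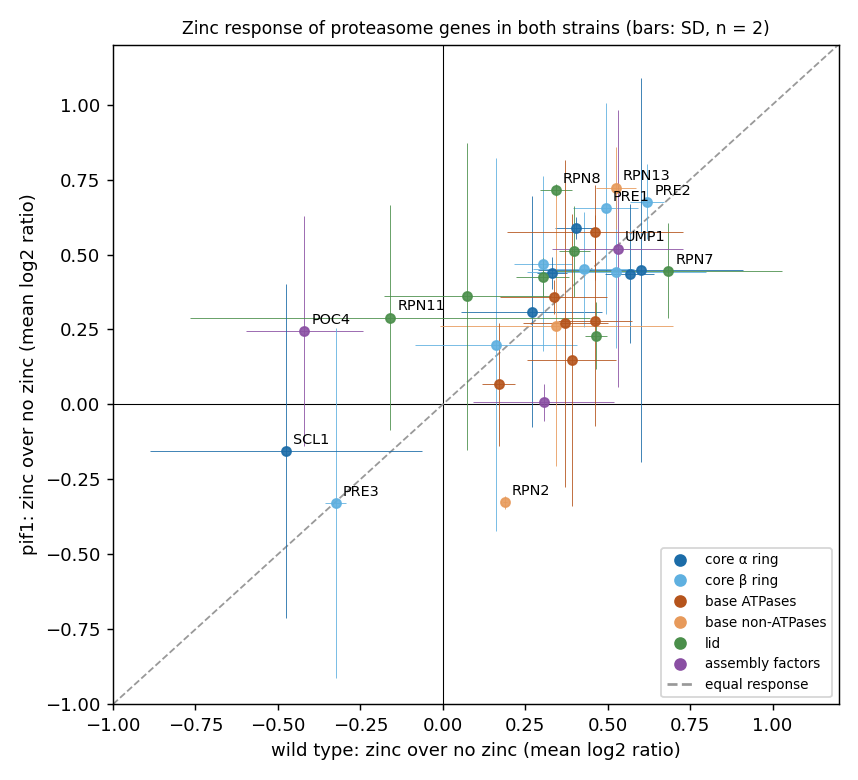
Mean log2 zinc response of the 32 members tested in both strains, pif1 on the vertical and the wild type on the horizontal axis (bars, SD of 2 arrays; dashed line, equal response). Most lie above 0 in both strains, while RPN2 is at −0.33 in pif1 and 0.19 in the wild type, and POC4 is at 0.24 in pif1 and −0.42 in the wild type.

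The strains shared some of the responding members. Of the 32 members tested in both, 7 rose in both: PRE2, PRE1, PUP2, PRE10, RPT2, RPN13 and RPN5, when 405 of 4086 genes (9.91%) did so. Across the 32 members the mean zinc responses in the strains correlated at 0.633, and across 3857 genes at 0.811. The points of a strain share its 2 arrays, so they are not independent.

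The difference in zinc response, pif1 minus wild type, was called by limma for 0 of 32 members and for 0 of 3857 genes (0%). The contrast averages the estimate from the zinc arrays with that from the mutant arrays. Across the 3857 genes those estimates correlated at −0.251, so differences between the strains could cancel in the average. The 0 calls thus do not show that the strains respond alike. At an unadjusted p under 0.05, limma had 0 members higher and 1 lower, which was RPN2, when 6.4% of all genes were under it in either direction. RPN2 was at −0.37 (SE 0.12, limma adjusted p = 0.505). Over the 32 members the difference ran from −0.37 to 0.37 (RPN11), with standard errors of 0.12 to 0.22.

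POC4 and RPN2 differed most between the strains on the zinc arrays. From those arrays alone the difference was 0.66 for POC4 (limma adjusted p = 0.283) and −0.51 for RPN2 (adjusted p = 0.274). From the mutant arrays it was −0.52 for POC4 and −0.22 for RPN2. The 2 estimates thus had opposite signs for POC4 and the same sign for RPN2. Averaged, POC4 was at 0.071 (limma adjusted p = 0.992). With the zinc labels of the mutant arrays exchanged, a setting added after the data were seen, limma called 0 members. POC4 was then at 0.59 (limma adjusted p = 0.173) and RPN2 at −0.15 (adjusted p = 0.794). No share of all genes is given for the exchanged labels, so this count stands without a background.

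In pif1 against wild type, most proteasome transcripts lay slightly below 0, and no subunit passed the test as lower. On the arrays labelled with zinc, limma called 0 of 36 members, when 1.18% of 4657 genes were called (0.988% higher and 0.193% lower). On those labelled without zinc it called 1 of 37, POC4, which was higher, when 2.03% of 4722 genes were called (1.44% higher and 0.593% lower). At an unadjusted p under 0.05, limma had 1 member higher (2.78%) and 0 lower with zinc, when 9.81% of all genes were under it (2.64% lower). Without zinc it had 1 higher (2.7%) and 4 lower (PRE2, PRE1, RPN6 and RPN13, 10.8% of members). Of all genes tested without zinc, 14.6% were under it (5.48% lower).

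The common sign was again more frequent than the calls. With zinc the median member was at −0.11, and 21 of 36 members were below 0 on both arrays (58.3%, against 28.9% of all genes tested) and 2 above 0 on both (5.56%, against 27.6%). Without zinc the median was −0.22, and 29 of 37 were below 0 on both (78.4%, against 32.3%) and 3 above 0 on both (8.11%, against 32.1%). Of 36 members with all 4 mutant values, 18 were below 0 on every one, when 15.9% of all such genes were. The mutant comparisons correlated at 0.798 over 32 members, which rests on POC4: without it the correlation was 0.353 over 31 members. Over 3857 genes it was 0.491.

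The members with the lowest means labelled without zinc were core subunits. PRE6 was at −0.067 and −0.42 with zinc and at −0.27 and −0.60 without (mean −0.43 ± 0.23, limma adjusted p = 0.429). PRE1 was at −0.27 and −0.076 with zinc and at −0.59 and −0.27 without (mean −0.43 ± 0.22, limma adjusted p = 0.245). PRE2 was at −0.16 and −0.28 with zinc and at −0.37 and −0.44 without (mean −0.40 ± 0.048, limma adjusted p = 0.164). All 3 were below 0 on every mutant array. PUP1 had the lowest mean with zinc, −0.27 ± 0.083 (−0.21 and −0.33, limma adjusted p = 0.664).

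Core, base and lid all had medians below 0, and none of their subunits passed. The core had 8 of 14 subunits below 0 on both arrays with zinc (median −0.15) and 13 of 14 without (median −0.24). The base had 6 of 10 with zinc (median −0.14) and 6 of 10 without (median −0.20). The lid had 6 of 8 with zinc (median −0.11) and 8 of 8 without (median −0.22). The shares of all genes tested below 0 on both arrays were 28.9% with zinc and 32.3% without. RPN1, which had too few zinc values to test, was at −0.54 and 0.051 with zinc and at −0.54 and −0.16 without. RPN2 was at −0.094 and −0.22 with zinc and at 0.058 and 0.071 without, and BLM10 at −0.13 and 0.068 with zinc and at 0.18 and 0.29 without. RPN2, BLM10 and POC4 were the members above 0 on both arrays labelled without zinc.

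Scaling changed the calls here. Labelled without zinc, limma called 1 higher and 1 lower with arrays scaled to 1 spread (PRE2 at −0.54, adjusted p = 0.0315). With arrays given 1 distribution it called 1 higher and 2 lower (PRE2 at −0.63 and PRE1 at −0.66). Of all genes tested, 9.32% were called with 1 spread and 9.23% with 1 distribution. By the series' design the 4 RNAs are each used in a zinc and a mutant comparison, so a member's zinc and mutant values may share an RNA.

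POC4 went the other way. Its product works with Irc25 in assembling the alpha ring. Its ratio of pif1 over wild type was 0.45 and 0.66 on the arrays labelled with zinc (mean 0.56 ± 0.14, 1.47-fold, limma adjusted p = 0.204) and 1.16 and 1.00 on those labelled without (mean 1.08 ± 0.11, 2.11-fold, adjusted p = 0.0176). It was above 0 on all 4 mutant arrays, and ranked 148 from the top of 4657 genes with zinc and 29 of 4722 without. With arrays scaled to 1 spread it also passed with zinc (0.87, limma adjusted p = 0.00891). Leaving out either array labelled without zinc ended its call. The other assembly factors among the members did not share its values. Without zinc UMP1 was at −0.30 and −0.43, ADD66 at −0.46 and −0.13 and RPN14 at 0.10 and −0.055. With zinc UMP1 was at −0.045 and −0.39, RPN14 at 0.047 and −0.062, and ADD66 had 1 value, −0.090. IRC25, which is not a member, was at 0.11 and −0.17 without zinc and at 0.13 and −0.074 with zinc.

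RPN4, the activator of the subunit genes, could not be followed. Its 1 value was −0.039, on replicate 2 of pif1 over wild type labelled with zinc. Of 5 genes known to act on RPN4 transcription or on Rpn4 stability (YAP1, HSF1, PDR1, PDR3 and MUB1), 2 were tested for zinc in pif1 and 3 in the wild type, and none passed. This list is partial, as RAD6 and UBR2 were counted with the conjugation enzymes below. RAD6 rose in pif1 (0.54 ± 0.24, limma adjusted p = 0.0223) and did not pass in the wild type (0.16 ± 0.14, adjusted p = 0.444). UBR2 was not tested for zinc in either strain.

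The rest of the ubiquitin system was followed in lists of genes that are not members. Their counts stand against 15.5% of all genes tested higher and 15.8% lower in pif1, and 14.7% higher and 15.6% lower in the wild type, and several are near these shares. Of 12 other proteasome factors, 2 of 11 tested rose and 1 fell in pif1, and 4 of 12 rose and 2 fell in the wild type. FUB1, similar to a mammalian proteasome inhibitor, rose by 0.75 ± 0.021 in pif1 and by 0.76 ± 0.35 in the wild type (limma adjusted p = 0.00927 in pif1 and 0.00885 in the wild type). SPG5, a proteasome regulator of stationary phase, rose in pif1 (0.56 ± 0.10), and NAS2, a chaperone of the base, rose in the wild type (0.72 ± 0.26). CIC1, which also acts in ribosome assembly, fell in both (−0.88 ± 0.37 in pif1 and −0.97 ± 0.040 in the wild type). PBA1, the partner of ADD66, fell in the wild type (−0.42 ± 0.028, limma adjusted p = 0.0459), where ADD66 was above 0 on both arrays.

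Among ubiquitin genes and conjugation enzymes, 7 of 22 tested rose and 2 fell in pif1, and 6 of 23 rose and 3 fell in the wild type. UBI4, the stress-induced polyubiquitin gene, was at 1.25 and 1.13 in pif1 (limma adjusted p = 0.000969) and at 1.52 and 2.13 in the wild type (adjusted p = 0.000108). UBC8, a conjugating enzyme, rose by 1.21 ± 0.57 in pif1 and by 1.45 ± 0.36 in the wild type. Both means exceeded those of all members tested for zinc. RPL40B and RPS31, which encode ubiquitin fused to ribosomal proteins, fell in the wild type (−0.71 ± 0.21 for RPL40B and −0.66 ± 0.18 for RPS31). The ubiquitin ligases SAN1, of nuclear quality control, and RSP5 fell in pif1 (−1.23 ± 0.027 for SAN1 and −0.90 ± 0.23 for RSP5).

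Of genes that deliver substrates, 0 of 13 tested rose and 1 fell in pif1, and 3 of 15 rose and 0 fell in the wild type. CDC48, which extracts ubiquitinated proteins, fell in pif1 (−0.75 ± 0.023, limma adjusted p = 0.00767). Its cofactors UFD1 (0.85 ± 0.036) and SHP1 (0.54 ± 0.11) rose in the wild type. Of the deubiquitinase list, 1 of 13 tested rose and 4 fell in pif1, and 1 of 16 rose and 3 fell in the wild type. YUH1 rose in both (0.63 ± 0.10 in pif1 and 0.48 ± 0.17 in the wild type), and UBP10 fell in both (−0.86 ± 0.23 in pif1 and −0.58 ± 0.17 in the wild type). UBP5 fell in pif1 (−0.66 ± 0.27), and UBP3 fell in both (−0.54 ± 0.17 in pif1 and −0.60 ± 0.11 in the wild type). In the mutant comparisons, UBP3 was the gene of these lists that passed. It was higher in pif1 on the arrays labelled without zinc (0.72 ± 0.15, limma adjusted p = 0.0348).

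**Figure D4:**
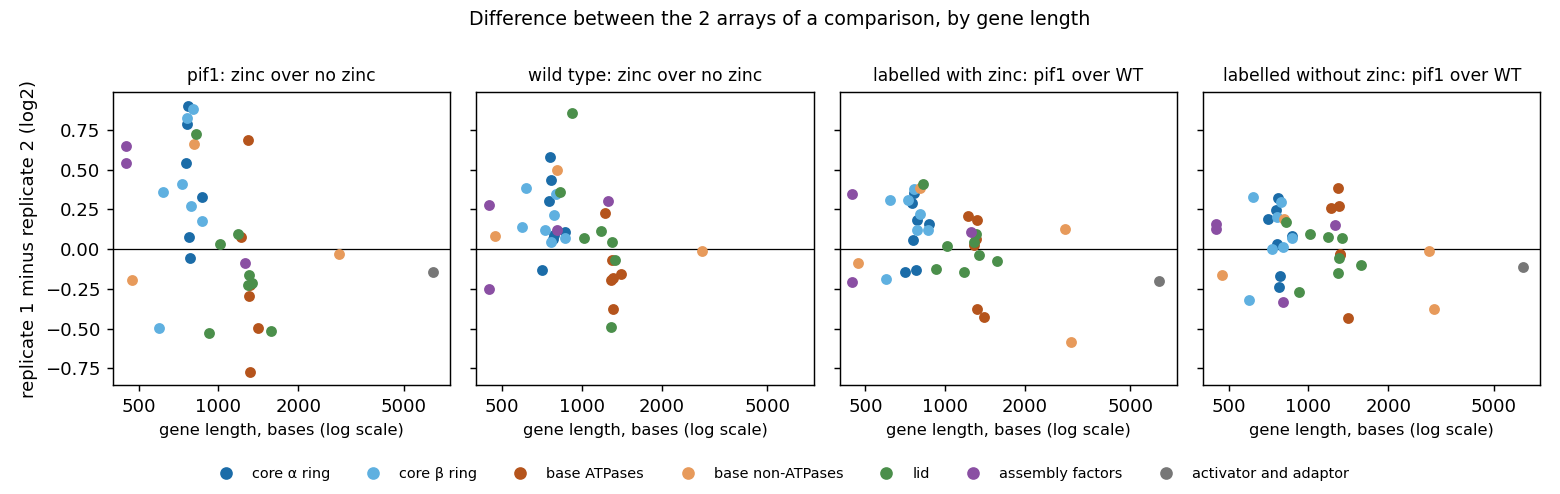
Replicate 1 minus replicate 2 (log2) against gene length (log scale, bases) for the members with 2 values in each comparison. The short core genes lie mostly above the longer ATPase genes, most widely for zinc in pif1.

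Gene length moved with the difference between replicates. The median length was 764.5 bases over the core genes, 1236 over the lid genes and 1309.5 over the ATPases. For zinc in pif1 the core median was 0.59 on replicate 1 and 0.26 on replicate 2, and the ATPase median was 0.21 on replicate 1 and 0.42 on replicate 2. For zinc in the wild type the core was at 0.44 on replicate 1 and 0.31 on replicate 2, and the ATPases at 0.29 on replicate 1 and 0.47 on replicate 2. The core was thus the higher of these on replicate 1 and the lower on replicate 2 in both strains. Length correlated with replicate 1 minus replicate 2 at −0.556 in pif1 and −0.409 in the wild type over 34 members each (Spearman). Over all genes it did so at −0.232 in pif1 (4111 genes) and −0.402 in the wild type (4417 genes). With each array's trend with length removed, a setting added after the data were seen, 7 members rose in pif1 (2 of the core). In the wild type 12 rose (6 of the core), and none fell in either strain. The shares of all genes tested that were called, higher and lower together, were 32.5% in pif1 and 33.4% in the wild type. The share called higher alone is not given for this setting. The member medians were then 0.31 in pif1 and 0.34 in the wild type. By subcomplex, the pif1 medians were 0.32 for the core, 0.27 for the base, 0.37 for the lid and 0.027 for the assembly factors (3 tested). Within the base they were 0.30 for the ATPases and 0.15 for the others (3 tested). In the wild type the medians were 0.37 for the core, 0.32 for the base, 0.34 for the lid and 0.37 for the assembly factors.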

How the data were processed

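The deposited table holds 1 column of log ratios per 2-colour array, read here as log2. Per the labels, the authors left out spots under 120 um in diameter or with fluorescence under 100 units. Scanner software, background correction, normalization, centring and log base are not given in the sources used here, so base and direction rest on the titles, on PIF1 and on the size of the values. Deposited medians ran from −0.064 to 0.0745.

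Gene names came from RefSeq's R64 table by locus tag (5639 IDs matched, with all members). Placeholders beyond 16 in size, 2 values of PIF1, were removed, and the median of every array was subtracted. Limma 3.58.1 in R 4.3.3 (lmFit, eBayes) fitted 1 coefficient per comparison, with the spread pooled over 8 arrays, to genes with both values. P-values were adjusted over all genes tested in a comparison. The fit was tested on simulated data with independent noise of the same spread for every gene of a comparison. There, false calls stayed within the threshold for 3 comparisons. They went well past it for zinc in pif1, whose arrays differ more than the pooled spread. Real arrays of the same number deviated together, which the simulation left out. The number of arrays limits the precision.

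Members, lists and tests were chosen with earlier results of these data known. The naming rule took members past the threshold in both zinc comparisons or in a mutant comparison, the highest and lowest of each subcomplex for zinc, RPN4, BLM10, ECM29, all assembly factors, and up to 2 higher and 2 lower called genes of each other list. The other members are named to account for each. Same-numbered arrays deviated together between all comparisons (r from 0.438 to 0.552 across 3857 genes), which no label explains.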

Additional observations from a re-analysis of the deposited data

Results flagged for a closer look

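RPN2, a scaffold of the base, stood out because it was below 0 on both zinc arrays of pif1 and above 0 on both of the wild type (pif1 minus wild type −0.51). Its ratio of pif1 over wild type was also below 0 on both arrays labelled with zinc and above 0 on both labelled without (with minus without −0.22). PRE4, a beta subunit, was above 0 on both mutant arrays labelled with zinc and below 0 on both labelled without (with minus without 0.43). The opposite signs as such were not tested. In the limma contrast over all 8 arrays neither gene was called (adjusted p = 0.505 for RPN2 and 0.992 for PRE4).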

How the results depend on the processing

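No called member changed sign under the alternatives run, but each had the same sign on both arrays, so the alternatives could hardly change it. Of 230 values of called members under them, 100 no longer passed. Over all 1941 single-member values, 132 changed sign, each with neither value past the threshold. Members called for zinc in pif1 (12) numbered 1 with arrays scaled to 1 spread, 2 with 1 distribution, 19 with the replicate block, 7 with the length trend removed, 0 with its arrays fitted alone, and 10 to 15 without 1 replicate. Those for zinc in the wild type (10) numbered 5 uncentred, 2 with 1 spread, 2 with 1 distribution, 20 with the replicate block, 6 with a dye term, 18 with its arrays fitted alone, 1 without replicate 1 and 0 without replicate 2, the lone array being assumed to vary like the others. A dye term gave 8 for zinc in pif1. Of all genes tested, 31.3% were called for zinc in pif1. This became 9.67% with 1 spread, 9.83% with 1 distribution, 44.8% with the block, 28.7% with a dye term and 32.5% without the length trend. For zinc in the wild type the share was 30.3%. It became 29.9% uncentred, 15.4% with 1 spread, 14.9% with 1 distribution, 42.7% with the block and 27.9% with a dye term. No such share is given in any comparison for arrays fitted alone or for fits without 1 replicate. Those counts stand without a background, so they cannot show whether members moved differently from other genes. The wild-type zinc median (0.36) was 0.31 uncentred, 0.27 with 1 spread and 0.29 with 1 distribution. Labelled with zinc, 1 member (POC4) was called with 1 spread (7.97% of all genes), with 1 distribution (6.81%) and with the arrays fitted alone. The median there (−0.11) was −0.14 uncentred, −0.18 with 1 spread, −0.20 with 1 distribution, and −0.11 to −0.083 without 1 replicate. Labelled without zinc, 2 were called with 1 spread, 3 with 1 distribution, 4 with the arrays fitted alone and 0 without either replicate. The 4 called with the arrays fitted alone were POC4, higher, and PRE1, PRE6 and PRE2, lower. Of all genes tested, 9.32% were called labelled without zinc with 1 spread and 9.23% with 1 distribution. The member median labelled without zinc (−0.22) was −0.30 with 1 spread, −0.34 with 1 distribution, and −0.24 to −0.19 without 1 replicate. The difference in zinc response had 0 calls in every setting run. Its estimates from zinc and mutant arrays could cancel when averaged, so this does not show equal responses. The replicate block changed no count of members in the mutant comparisons. The causes were not tested. Signal over background was not analysed here.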

Other observations

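The chromosomal neighbours of POC4, looked up after its values were seen, did not pass in the mutant comparisons. RPL33A, a ribosomal protein gene, was at 0.063 and −0.35 on the arrays labelled with zinc and at 0.075 and −0.12 on those labelled without. KES1, an oxysterol-binding protein gene, was at 0.14 and −0.014 with zinc and at 0.21 and −0.0020 without.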
